A study of Mus musculus with 10 samples.

Results

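Microglia sorted from Trem2-/- mice on cuprizone were compared with microglia sorted from WT mice on the same diet, with 2 libraries per genotype out of 10 in the series. The members were chosen by their titles: the Trem2-/- libraries titled 4 and 12 weeks of cuprizone and the WT libraries titled 4 and 12 weeks. The Trem2-/- group came from TREM2-/- males (allele, deleted part and backcross not given in the sources used here) and the WT group came from C57BL/6 males. All mice were 8 to 12 weeks old per the labels and all 4 libraries came from mice fed 0.2% cuprizone. The labels give this age for libraries of both titled durations, so equal age at sorting cannot be read from it. The remaining 6 libraries were those of mice returned to normal food for 2 weeks after cuprizone (2 of Trem2-/- and 2 of WT) and those of controls (1 of Trem2-/- and 1 of WT), and they entered the fit and the comparisons of diet conditions. The Trem2-/- library titled 12 weeks carries a conflicting label of 4 weeks in its time field. Below, 12 weeks means the titled duration, and the 4-week and 12-week pairs are shown separately as well as together. The labels name no animals or pools, so the libraries of a group are not known biological replicates, and the p-values measure only the spread between these libraries, which includes the difference between 4 and 12 weeks.

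Microglia are brain-resident macrophages. TREM2 is a lipid-binding receptor on their surface that signals through the adaptor TYROBP (DAP12). Cuprizone, a chelator of copper, kills oligodendrocytes, and the myelin debris that follows is taken up by microglia, which must store, esterify or export its cholesterol and fatty acids. Microglia that meet debris, dying cells or plaques are known to switch on a disease-associated set of genes for lipid uptake, phagocytosis and lysosomal work while lowering the homeostatic genes of the resting state.

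Levels are log2 intensities and differences are Trem2-/- minus WT on the log2 scale, so a difference of 1 is 2-fold. The median of the table, 5.27, is taken as a mark of dim signal. The 10 arrays had median linear intensities of 37.6 to 39.3. Of 10 microglia markers, 9 were on the array, and all 9 lay between 9.62 and 12.47 in the 4 cuprizone libraries. Over all probes, the Trem2-/- library titled 12 weeks correlated at 0.984 to 0.988 with the 3 other arrays titled 12 weeks and at 0.977 to 0.983 with the 6 arrays titled 4 weeks or control. The libraries titled 12 weeks also carry a separate run of the submitters' sample numbers, so titled duration and run cannot be told apart.

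Trem2, the targeted gene on chromosome 17, measured 7.78 and 7.47 at 4 and 12 weeks in Trem2-/- cells, against 10.81 and 10.70 in WT cells. Both Trem2-/- libraries lay below both WT libraries, and some signal remained above the table's median in both. The difference was -3.13 ± 0.23 (SE, adjusted p = 0.0028), or 8.74-fold lower. The position of the probe relative to the deleted part was not given in the sources used here, so its remaining signal cannot be assigned. Its adaptor Tyrobp measured 12.62 and 12.48 in Trem2-/- cells, against 12.65 and 12.57 in WT cells, a difference of -0.05 ± 0.18 that did not pass and that turned positive under quantile normalization (0.01) and without the 12-week Trem2-/- library (0.02). Of the 18 tested members of the TREM2 signalling list, which holds the adaptors, kinases and phospholipase downstream of the receptor, 0 passed in either direction, with or without duration as a block, and the list's median was 0.08. The members furthest from 0 were the adaptors Lat2 (-0.50 ± 0.18) and Hcst (-0.37 ± 0.21), the adaptor Sh2b3 (0.37 ± 0.18) and the lipid phosphatase Inpp5d (0.33 ± 0.31). The neighbouring genes Treml1 and Treml2 differed by 0.13 ± 0.26 and -0.76 ± 0.45 and did not pass. The Treml2 difference was -1.58 in the 4-week pair and 0.05 in the 12-week pair. The Treml1 difference was -0.17 without the 4-week Trem2-/- library.

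On cuprizone, 35 of 10792 tested genes were lower in Trem2-/- cells (0.324% of genes tested) and 1 was higher (0.00927%), by limma at an adjusted p under 0.05. The genes that were lower included apolipoproteins and lipid-handling genes, receptors for debris and apoptotic cells, the secreted protease Mmp12 and the growth factors Igf1, Csf1 and Vegfa. All 35 were 2-fold or more lower in both the 4-week and the 12-week pair, and 14 of them lay under the table's median in both Trem2-/- libraries (4.16% of all genes did), where differences can be compressed. At an unadjusted p under 0.05 there were 482 genes (4.47%). With titled duration as a block, 138 genes were lower (1.28%) and 15 higher (0.139%), and these included all 36 of the genes called without it. The additional calls depend on the titled duration: with the library of conflicting time labels taken as a 4-week one in that fit, 53 were lower and 2 higher, again with all 36 included. Of the genes described as passing only with the block, Apoe, Nceh1 and Csmd3 passed in that fit too and the others did not. The count rested on few libraries: without duration as a block it was 0 when the 12-week Trem2-/- library, the one with conflicting time labels, was left out, 11 without the 4-week WT library, 16 without the 4-week Trem2-/- library and 17 without the 12-week WT library. All 36 genes kept their direction in each of these fits, and with both the block and the 12-week Trem2-/- library left out 39 genes were called, 29 of them among the 36. In sorted bulk RNA, fewer cells of a type and less RNA per cell cannot be told apart.

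**Figure D1:**
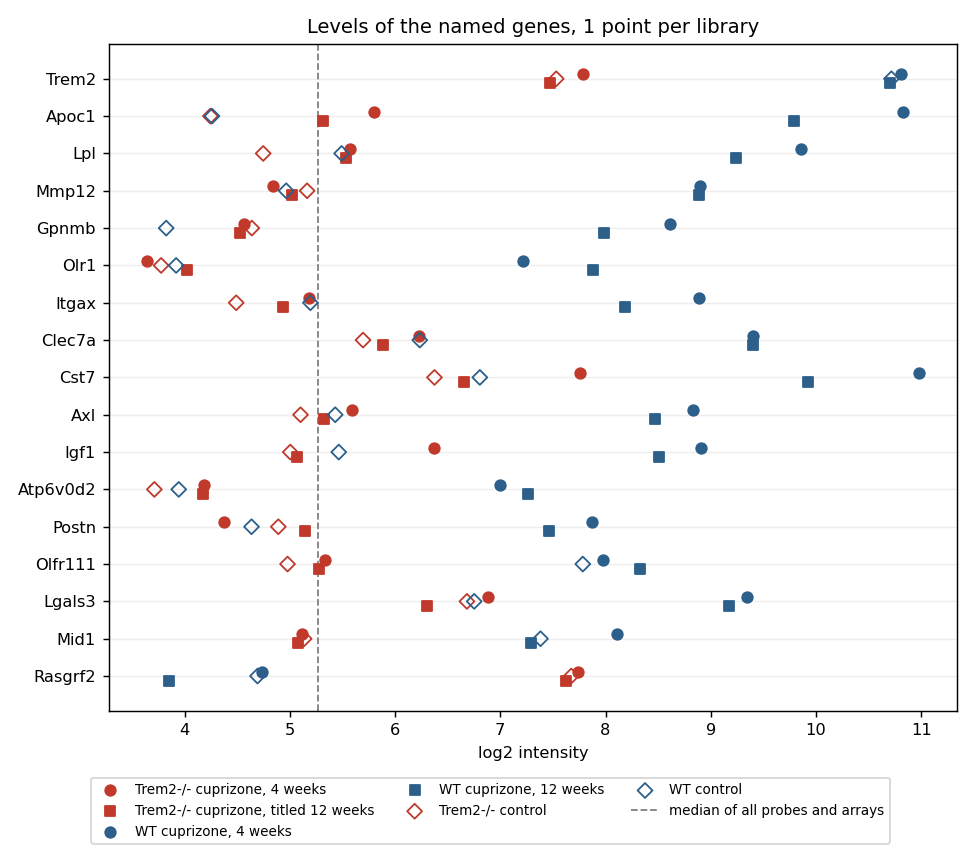
Log2 intensity (x axis) of Trem2, the 15 named genes that were lower and Rasgrf2 (rows), with 1 point per library. Filled circles and squares are the 4-week and 12-week cuprizone libraries, open diamonds the controls, red Trem2-/- and blue WT, and the dashed line is the table's median of 5.27. For Gpnmb the Trem2-/- cuprizone points (4.57 and 4.52) lie beside the Trem2-/- control (4.64), while the WT cuprizone points (8.62 and 7.99) lie far from the WT control (3.82).

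Apolipoprotein and lipid-uptake genes included 5 called lower. Apoc1, an apolipoprotein of the Apoe gene cluster, measured 5.80 and 5.31 in Trem2-/- cells, against 10.83 and 9.79 in WT cells. Lpl, the lipase that frees fatty acids from lipoproteins, measured 5.57 and 5.53 in Trem2-/- cells, against 9.86 and 9.24 in WT cells. Olr1, the receptor for oxidised low-density lipoprotein, measured 3.64 and 4.02 in Trem2-/- cells, against 7.21 and 7.88 in WT cells. In each of the 3 genes both Trem2-/- libraries lay more than 3 log2 units below both WT libraries. The differences were -4.75 ± 0.39 for Apoc1 (adjusted p = 0.0032, 27-fold lower), -4.0 ± 0.36 for Lpl (adjusted p = 0.0049) and -3.71 ± 0.36 for Olr1 (adjusted p = 0.0066). Fabp5, a carrier of fatty acids in the cytosol, measured 6.61 and 6.70 in Trem2-/- cells, against 9.16 and 8.47 in WT cells, and was lower by 2.16 ± 0.26 on the log2 scale. Of the 17 tested members of the list of apolipoproteins and lipid uptake, 5 were called lower (0.324% of all genes were) and 0 higher. In both pairs 11 were lower (28.9% of all genes were), and the median was -0.64, against 0.00 for all genes. The fifth called member was Apoc4, another apolipoprotein of the cluster (-1.80 ± 0.23). Apoe itself, the main lipid carrier secreted by microglia, differed by -1.50 ± 0.24 and missed the threshold (adjusted p = 0.057), but passed with duration as a block (adjusted p = 0.0066). Apoc4 and Apoe, like the other genes given outside the named sets, were picked after their values were seen.

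Markers of phagocytes facing lipid or debris followed. Gpnmb, a transmembrane glycoprotein of lipid-laden phagocytes, measured 4.57 and 4.52 in Trem2-/- cells, against 8.62 and 7.99 in WT cells. Both Trem2-/- values were under the table's median. Its difference was -3.76 ± 0.25 (adjusted p = 0.0028). Itgax, which encodes the integrin subunit CD11c, measured 5.18 and 4.93 in Trem2-/- cells, against 8.88 and 8.18 in WT cells. Clec7a, the beta-glucan receptor dectin-1, measured 6.23 and 5.89 in Trem2-/- cells, against 9.40 and 9.40 in WT cells. Axl, a receptor kinase that binds bridging proteins on apoptotic cells, measured 5.59 and 5.32 in Trem2-/- cells, against 8.83 and 8.47 in WT cells. These 3 receptors each stood about 10-fold lower, with differences of -3.48 ± 0.27 for Itgax, -3.34 ± 0.31 for Clec7a and -3.19 ± 0.25 for Axl (adjusted p from 0.0028 to 0.0049). Clec7a and Axl were the 2 members called lower among the 21 tested phagocytic and debris receptors (0.324% of all genes were). Of the 21, 9 were lower in both pairs and 6 higher in both (28.9% and 26.9% of all genes), and the median was -0.09. The scavenger receptor Msr1 differed by -0.59 ± 0.47 and did not pass.

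A further 5 genes called lower encode secreted proteins, and they are grouped here for description only, with no list or test behind the grouping. Mmp12, the macrophage elastase, measured 4.84 and 5.02 in Trem2-/- cells, against 8.90 and 8.89 in WT cells, a difference of -3.96 ± 0.41 (adjusted p = 0.0073). Igf1, a growth factor that supports oligodendrocytes, measured 6.37 and 5.07 in Trem2-/- cells, against 8.91 and 8.51 in WT cells, a difference of -2.99 ± 0.38 (adjusted p = 0.020). Lgals3, the galactose-binding lectin galectin-3, measured 6.88 and 6.30 in Trem2-/- cells, against 9.35 and 9.18 in WT cells. Both Trem2-/- libraries lay below both WT libraries in each of these 3 genes, as in 15.4% of all genes tested. Postn, the matrix protein periostin, measured 4.37 and 5.14 in Trem2-/- cells, against 7.87 and 7.47 in WT cells. Vegfa, an endothelial growth factor, measured 5.76 and 5.71 in Trem2-/- cells, against 7.05 and 7.56 in WT cells. Differences were -2.67 ± 0.26 for Lgals3, -2.91 ± 0.36 for Postn and -1.56 ± 0.23 for Vegfa. Igf1 and Vegfa were the 2 members called lower among 8 tested trophic factors (0.324% of all genes were). Of the 8, 5 were lower in both pairs (28.9% of all genes were) and the median was -0.13. The factor Pdgfa differed by -0.26 ± 0.24.

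Endolysosomal genes split into a few with wide gaps and many with small ones. Cst7, an inhibitor of lysosomal cysteine proteases, measured 7.76 and 6.66 in Trem2-/- cells, against 10.98 and 9.92 in WT cells, a difference of -3.24 ± 0.42 (adjusted p = 0.020). Atp6v0d2, a subunit of the proton pump that acidifies lysosomes, measured 4.18 and 4.17 in Trem2-/- cells, against 7.0 and 7.26 in WT cells, a difference of -2.95 ± 0.41 (adjusted p = 0.029). It was the 1 member called among 18 tested genes of the lysosomal membrane and proton pump list (0.324% of all genes were called lower). That list's median was -0.13. The transcription factor Mitf (-0.47 ± 0.21) and the membrane protein Cd63 (-0.36 ± 0.24) did not pass. Of 20 tested lysosomal proteases and hydrolases, 0 were called with or without the block. In both pairs 16 were lower (28.9% of all genes were) and the median was -0.23. The members Ctsh (-0.50 ± 0.32), Ctsz (-0.45 ± 0.21) and Glb1 (-0.43 ± 0.22), which encode cathepsins and a galactosidase, did not pass.

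The remaining genes called lower, apart from G530011O06Rik and the 2 genes Olfr111 and Mid1 that are described with the controls, ranged from -2.55 for Cxcr4 to -1.34 for Rap2b and are named here although they fall outside the named sets. Signalling genes among them were the chemokine receptor Cxcr4, the microglial growth factor Csf1 (-1.99 ± 0.28), the myeloid Src-family kinase Fgr (-1.35 ± 0.17), the activating receptor Cd300lb (-1.42 ± 0.18) and the small GTPase Rap2b. Rab7b, a GTPase of endosomes, differed by -2.43 ± 0.25 and Fam20c, a kinase of secreted proteins, by -2.43 ± 0.22. Egln3, an oxygen-sensing hydroxylase, differed by -2.29 ± 0.35. The actin-capping protein Capg (-2.04 ± 0.28), the sialyltransferase St8sia6 (-2.02 ± 0.26), the surface glycoprotein Cd52 (-1.81 ± 0.22), the phosphatidylserine-binding Anxa5 (-1.46 ± 0.22), Mamdc2 (-2.06 ± 0.21) and Lrmda (-2.54 ± 0.30) made up the rest, with the receptor Flt1, which is described among the markers of other cells.

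Promoters of the 4 largest named differences for which the RefSeq table (GRCm38.p6) holds one are shown because these genes were lower together by more than 3 log2 units, and each is the 250 bases before the start, 5′ to 3′ on the gene's strand. They lie at chr9:7344147-7344396 (plus strand) for Mmp12, chr6:49036268-49036517 (plus) for Gpnmb, chr6:129507166-129507415 (minus) for Olr1 and chr7:128129300-128129549 (plus) for Itgax. Mmp12 has a second entry in the table, which is not shown. The motifs searched were GGAAGT, an ETS-family core, TGANTCA, an AP-1 core, TCATGTG, an M-box, and CACGTG, an E-box, and capitals mark matches to any of them on either strand.
Mmp12: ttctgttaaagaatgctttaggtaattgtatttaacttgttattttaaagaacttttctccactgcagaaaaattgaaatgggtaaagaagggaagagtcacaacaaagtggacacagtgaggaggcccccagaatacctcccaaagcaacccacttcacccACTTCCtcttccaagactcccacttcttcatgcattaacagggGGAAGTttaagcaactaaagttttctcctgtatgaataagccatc
Gpnmb: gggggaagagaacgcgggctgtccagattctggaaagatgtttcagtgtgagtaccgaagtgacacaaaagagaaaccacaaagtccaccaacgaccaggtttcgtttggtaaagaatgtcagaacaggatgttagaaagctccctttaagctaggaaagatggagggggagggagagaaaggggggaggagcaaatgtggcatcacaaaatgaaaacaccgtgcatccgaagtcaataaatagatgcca
Olr1: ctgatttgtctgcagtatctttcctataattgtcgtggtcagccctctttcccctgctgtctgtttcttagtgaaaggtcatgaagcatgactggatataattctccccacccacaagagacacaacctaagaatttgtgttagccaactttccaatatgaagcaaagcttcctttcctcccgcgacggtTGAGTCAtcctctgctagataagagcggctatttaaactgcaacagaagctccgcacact
Itgax: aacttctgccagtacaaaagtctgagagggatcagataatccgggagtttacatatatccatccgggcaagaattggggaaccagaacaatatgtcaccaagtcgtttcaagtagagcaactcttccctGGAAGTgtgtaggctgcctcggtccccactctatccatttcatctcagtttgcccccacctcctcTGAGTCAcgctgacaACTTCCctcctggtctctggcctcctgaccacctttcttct
Mmp12 holds GGAAGT at 88 and 45 bases before the start, Olr1 holds TGANTCA at 60 bases, Itgax holds GGAAGT at 121 and 41 bases and TGANTCA at 56 bases, and Gpnmb holds none of the 4 motifs in this window. Promoters were found for 28 of the 35 genes called lower. All shares below are for the 250 bases before the start. Of those 28, 7 (25.0%) hold GGAAGT, against 19.7% of all 32851 promoters in the table and 27.5% of 8686 tested genes with a promoter. TGANTCA is held by 5 (17.9%), against 6.7% of all promoters and 5.3% of tested genes. TCATGTG is held by 2 (7.1%), against 3.3% of all promoters and 2.3% of tested genes, and CACGTG by 0, against 6.0% and 10.2%. Both strands were searched and matches of different motifs may overlap. These matches describe letters only.

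The disease-associated microglia list had lower values throughout in Trem2-/- cells. Of its 33 tested members, 16 were called lower (0.324% of all genes were) and 0 higher. All 33 were lower in both pairs (28.9% of all genes were), and 23 were 2-fold or more lower in both (0.964% of all genes). Some called members, such as Lpl and Olr1, are also counted in the list of apolipoproteins and lipid uptake. The disease-associated list had a median difference of -1.99. Taken separately, the 4-week and 12-week pairs had medians of -1.74 and -1.83, beside -0.02 and 0.01 over all genes. The list was written with earlier results of these libraries known and holds genes that had already been seen to be high in WT cells on cuprizone, so its direction is not independent evidence. With duration as a block 24 members were called lower (1.28% of all genes were). The difference nearest to 0 in the list was -0.07. Members with small differences included the lysosomal proteases Ctsl (-0.11) and Ctsb (-0.39), the endosomal protein Cd68 (-0.19) and the hypoxia factor Hif1a (-0.38), none of which passed.

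Homeostatic microglia genes had slightly higher values in Trem2-/- cells, without a call. Of 29 tested members, 27 were higher in both pairs (26.9% of all genes were) and the median was 0.28, but 0 were called. All gene lists were written with earlier results of these libraries known, so the direction of this list is not independent evidence. With the block, 2 members were called higher (0.139% of all genes were). Bank1, an adaptor of immune receptor signalling, measured 8.30 and 8.73 in Trem2-/- cells, against 7.57 and 6.94 in WT cells, a difference of 1.27 ± 0.27 (adjusted p = 0.18, and 0.032 with the block). Nav3, a microtubule-binding protein, measured 9.72 and 9.23 in Trem2-/- cells, against 8.44 and 8.25 in WT cells, a difference of 1.13 ± 0.23 (adjusted p = 0.14, and 0.0082 with the block). Upk1b (0.65 ± 0.19), the fructose transporter Slc2a5 (0.54 ± 0.27), the purinergic receptor P2ry12 (0.42 ± 0.18) and Tmem119 (0.32) did not pass in either fit.

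**Figure D2:**
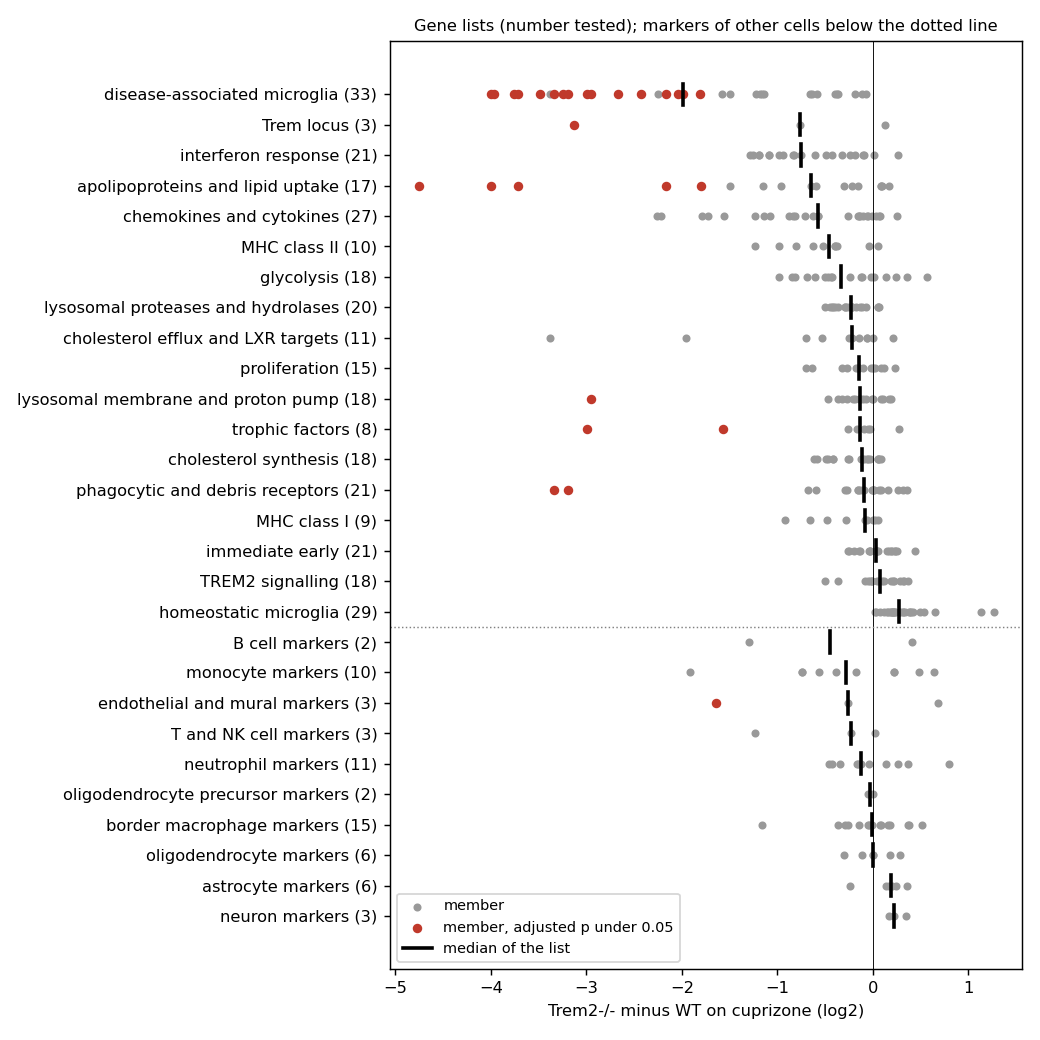
Trem2-/- minus WT difference on cuprizone (x axis, log2) of the tested members of each gene list (rows, with the number tested). Grey points are members, red points members with an adjusted p under 0.05 by limma, black bars list medians. The disease-associated list has its median at -1.99, the homeostatic list at 0.28, and the 1 red point among markers of other cells is Flt1.

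The cholesterol efflux and LXR target list included 2 genes with wide gaps that were called only with the block (1.28% of all genes were called lower with it). Ch25h, which makes 25-hydroxycholesterol, measured 4.68 and 5.39 in Trem2-/- cells, against 8.61 and 8.22 in WT cells, a difference of -3.38 ± 0.67 (adjusted p = 0.13, and 0.0049 with the block). Nceh1, a hydrolase of cholesterol esters, measured 6.17 and 5.25 in Trem2-/- cells, against 8.03 and 7.31 in WT cells, a difference of -1.96 ± 0.35 (adjusted p = 0.092, and 0.00089 with the block). Both Trem2-/- libraries lay below both WT libraries in each gene (15.4% of all genes tested did). Of the 11 tested genes of this list, 9 were lower in both pairs (28.9% of all genes were), with a median of -0.21. The transporter Abca1 (-0.54 ± 0.25) and the desaturase Scd2 (-0.70 ± 0.23) did not pass. Of 18 tested cholesterol synthesis genes 0 were called in either fit, with a median of -0.11. Dhcr7 (-0.62 ± 0.25) and Ebp (-0.58 ± 0.23), enzymes of the late pathway, and its regulator Srebf2 (-0.49 ± 0.18) were the members furthest from 0.

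Among inflammatory genes, 0 of 27 tested chemokines and cytokines and 0 of 21 interferon response genes were called. In both pairs 19 and 16 of them were lower (28.9% of all genes were). The list medians were -0.58 and -0.76. With the block 6 chemokines and cytokines and 0 interferon genes passed (1.28% of all genes were called lower with it). Ptgs2, the inducible prostaglandin synthase, measured 6.87 and 8.44 in Trem2-/- cells, against 9.06 and 10.77 in WT cells. Its level was higher at 12 weeks in both genotypes, and the 12-week Trem2-/- library lay below the 4-week WT one. The difference was -2.26 ± 0.75 (adjusted p = 0.77, and 0.00018 with the block). Cxcl14, a chemokine, differed by -2.22 ± 0.37 (adjusted p = 0.068, and 0.0098 with the block). Il12b, a cytokine subunit, differed by -1.79 ± 0.80, and Il1rn, the interleukin-1 receptor antagonist, by -1.73 ± 0.67. These 2 passed with the block only (adjusted p = 0.0060 and 0.048). The Il1rn difference was -0.78 at 4 weeks and -2.67 at 12 weeks. Ifi27l2a (-1.28 ± 0.49), Ifit1 (-1.25 ± 0.75), Mx2 (-1.20 ± 0.51) and Oas1a (-1.19 ± 0.29), all induced by interferon, did not pass in either fit. The interferon list's median was -0.57 in the 4-week pair and -0.78 in the 12-week pair.

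Antigen presentation and metabolism showed smaller differences. Of 10 tested MHC class II genes, 9 were lower in both pairs (28.9% of all genes were), 0 were called and the median was -0.46. Cd74, the invariant chain, measured 9.32 and 8.67 in Trem2-/- cells, against 10.29 and 10.18 in WT cells, a difference of -1.24 ± 0.23 (adjusted p = 0.11, and 0.011 with the block). The class II chains H2-Aa (-0.98 ± 0.49) and H2-Ab1 (-0.81 ± 0.25) and the antigen-reducing enzyme Ifi30 (-0.62 ± 0.23) did not pass. The median of 9 tested MHC class I genes was -0.08, with H2-M3 at -0.92 ± 0.24 and the peptide transporter Tap1 at -0.66 ± 0.24. Of 18 tested glycolysis genes, 12 were lower in both pairs (28.9% of all genes were), with a median of -0.33. The glucose transporter Slc2a1 (-0.99 ± 0.42) and the kinase Pgk1 (-0.81 ± 0.25) passed with the block only (adjusted p = 0.013 and 0.028). Tpi1 (-0.85 ± 0.21) and Aldoa (-0.69 ± 0.24), enzymes of the same pathway, did not pass. Proliferation genes (15 tested) had a median of -0.14, with the mitotic kinase Cdk1 at -0.70 ± 0.24 and Tyms, which makes thymidylate, at -0.64 ± 0.20, and immediate early genes (21 tested) had a median of 0.04, with the transcription factors Klf4 at 0.44 ± 0.24 and Klf6 at 0.25 ± 0.19. In neither list was a member called.

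The 1 gene called higher was Rasgrf2, an exchange factor that activates Ras and Rac. It measured 7.74 and 7.62 in Trem2-/- cells, against 4.74 and 3.86 in WT cells, a difference of 3.38 ± 0.36 (adjusted p = 0.0074). Both WT values lay under the table's median, near background, so the size of this difference may be compressed. Further genes passed only with duration as a block, and of those named here only Csmd3 also passed when the library with conflicting time labels was taken as a 4-week one (2 genes higher, 53 lower in all). Klrd1, a lectin-like receptor subunit, measured 7.73 and 7.36 in Trem2-/- cells, against 6.59 and 4.76 in WT cells. Gpr165, a receptor with no assigned ligand, measured 10.13 and 9.96 in Trem2-/- cells, against 8.67 and 8.51 in WT cells. Csmd3, a transmembrane protein with complement-type domains, measured 9.85 and 9.88 in Trem2-/- cells, against 8.85 and 8.12 in WT cells. Their differences were 1.87 ± 0.53, 1.45 ± 0.35 and 1.38 ± 0.29, with adjusted p-values of 0.020, 0.0099 and 0.0070 with the block. Pcbd1 (1.32), the detoxifying enzyme Glo1 (1.14), the mitochondrial transhydrogenase Nnt (1.07) and Trp53i11 (1.02) passed with the block as well.

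Pair by pair, with 1 library per genotype and therefore no test, 148 genes were 2-fold or more lower in Trem2-/- cells at 4 weeks (1.37%) and 20 were higher (0.185%). At 12 weeks 188 were lower (1.74%) and 62 higher (0.574%). In both pairs together 104 were 2-fold or more lower (0.964%), 7 were higher (0.0649%) and 1 moved 2-fold in opposite directions (0.00927%). Over all genes the SD of the difference was 0.363 at 4 weeks and 0.418 at 12 weeks. The 35 genes called lower showed no common order between the durations: 15 had the larger gap at 4 weeks and the rest at 12 weeks. The gap of Postn was -3.50 at 4 weeks and -2.33 at 12 weeks, that of Igf1 was -2.54 and -3.44, and that of Cxcr4 was -1.83 and -3.28. Axl (-3.24 and -3.15) and Cst7 (-3.22 and -3.26) had nearly the same gap in both pairs, although both Cst7 levels were lower at 12 weeks in each genotype. Ttr, the thyroid hormone carrier made by choroid plexus, stood out from the pattern, at 9.58 and 5.70 in Trem2-/- cells, against 4.14 and 5.53 in WT cells, so that its gap was 5.44 at 4 weeks and 0.17 at 12 weeks.

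**Figure D3:**
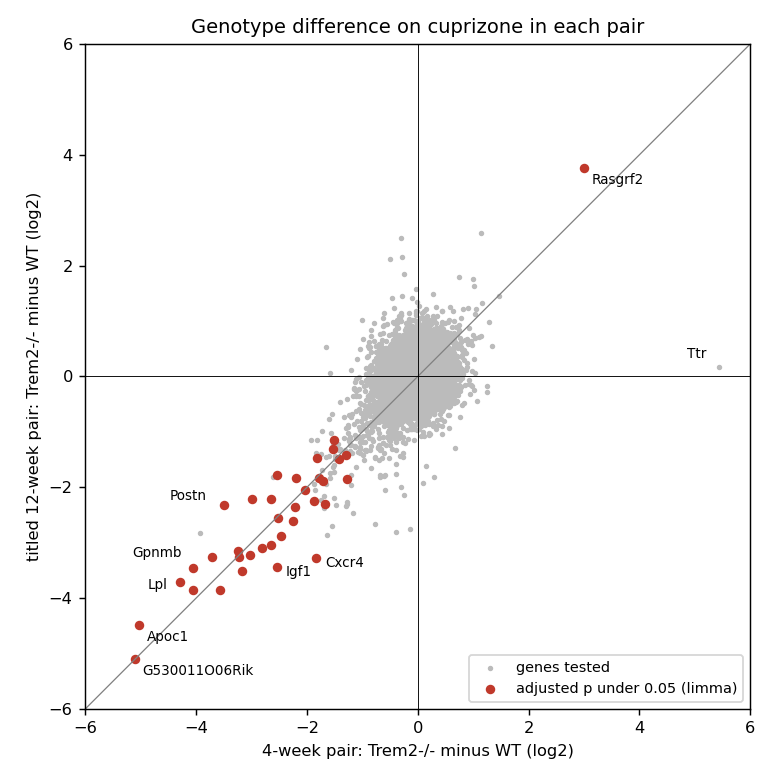
Trem2-/- minus WT difference (log2) in the 4-week pair (x axis) and in the pair titled 12 weeks (y axis), with 1 point per gene and a diagonal of equal differences. Red points are the 36 genes with an adjusted p under 0.05 by limma. They lie along the diagonal, with G530011O06Rik at -5.10 and -5.10, Apoc1 at -5.03 and -4.48 and Rasgrf2 at 3.0 and 3.77, while Ttr lies far to the right at 5.44 and 0.17.

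In the control pair (1 library each, no test), 16 genes were 2-fold or more lower in Trem2-/- cells (0.148% of genes tested), and 4 of the 35 genes called lower on cuprizone were among them: Trem2, Olfr111, Mid1 and G530011O06Rik. The other 31 differed by under 2-fold either way. In the same pair 8 genes were 2-fold or more higher (0.0741%), Rasgrf2 among them. Gpnmb measured 4.64 in Trem2-/- controls, against 3.82 in WT controls. Apoc1 measured 4.24 in Trem2-/- controls, against 4.26 in WT controls. Lpl measured 4.75 in Trem2-/- controls, against 5.49 in WT controls. On cuprizone the WT levels of these genes lay far above the WT control, and the Trem2-/- levels nearer to the Trem2-/- control, as the per-sample values above show. These comparisons share the cuprizone libraries. A test of the difference itself, the genotype difference on cuprizone minus that in controls, called 1 gene (0.00927%) and, with the block, 9 (0.0834%), while 159 had an unadjusted p under 0.05 (1.47%). It was Gpnmb, at -4.57 (adjusted p = 0.045), but no gene was called in 7 of 8 fits that left out a library, nor with array medians subtracted or 16 added before log2. Each control group is 1 library, assumed to vary like the other groups.

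The 4 genes that also differed in controls, and Rasgrf2, kept a gap in all 5 diet conditions. Olfr111, an olfactory receptor gene on chromosome 17 like Trem2, measured 5.34 and 5.28 in Trem2-/- cells on cuprizone, against 7.98 and 8.32 in WT cells, and 4.98 in the Trem2-/- control, against 7.78 in the WT control. Mid1, a ubiquitin ligase on chromosome X, measured 5.12 and 5.08 in Trem2-/- cells on cuprizone, against 8.11 and 7.30 in WT cells, and 5.14 in the Trem2-/- control, against 7.38 in the WT control. G530011O06Rik, also on chromosome X, had the largest gap of all on cuprizone (-5.10 ± 0.52), at 6.48 and 5.27 in Trem2-/- cells, against 11.58 and 10.37 in WT cells. In controls it measured 6.44 in Trem2-/- cells, against 9.51 in WT cells. Rasgrf2, on chromosome 13, measured 7.67 in the Trem2-/- control, against 4.69 in the WT control.

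After return to normal food the same genes were read again. They had been chosen for low values on cuprizone, so a smaller gap in another condition is no finding by itself. In the recovery pairs 14 were 2-fold or more lower in both (0.167% of all genes), 10 in 1 pair only (1.19%) and 11 in neither. The 3 called after recovery (0.0278% of genes tested) were Trem2, Mid1 and G530011O06Rik. Apoc1 measured 5.55 and 6.25 in Trem2-/- cells after recovery, against 7.43 and 7.94 in WT cells. Cst7 measured 8.38 and 8.30 in Trem2-/- cells after recovery, against 8.71 and 8.31 in WT cells, so the genotypes lay close together there. Gpnmb measured 5.24 and 4.90 in Trem2-/- cells after recovery, against 6.83 and 6.64 in WT cells, a gap in both pairs. The test of the genotype difference on cuprizone minus that after recovery found 0 genes by limma and 0 with the block, while 161 had an unadjusted p under 0.05 (1.49%).

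**Figure D4:**
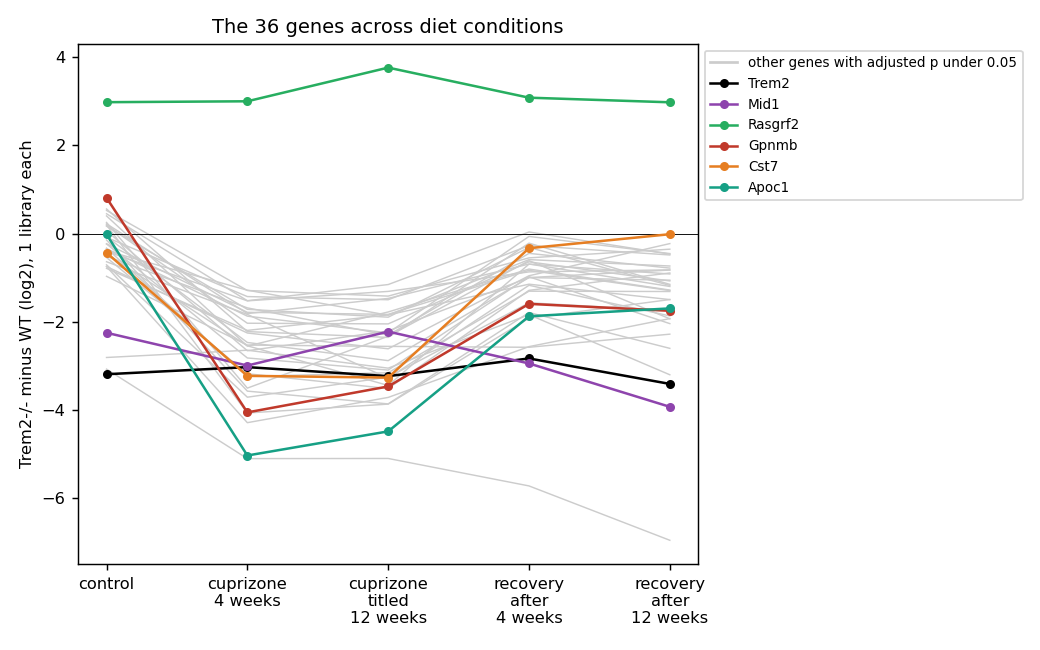
Trem2-/- minus WT difference (y axis, log2, 1 library per genotype) of the 36 genes in controls, at 4 and 12 weeks of cuprizone and after recovery from each (x axis), with 6 genes coloured and the rest in grey. Trem2, Mid1 and Rasgrf2 keep a gap in every condition, while Apoc1 is at -0.02 in controls, -5.03 and -4.48 on cuprizone, and -1.87 and -1.69 after recovery.

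Markers of other cells were read beside these results. Of 14 neutrophil markers on the array, the median level was 6.66 and 4.80 at 4 and 12 weeks in Trem2-/- cells, against 7.30 and 4.59 in WT cells, and 9 and 3 of them lay above the table's median in Trem2-/- cells, against 10 and 2 in WT cells. The log2 of their summed intensity was 12.53 and 9.98 in Trem2-/- cells, against 12.86 and 9.74 in WT cells. Border macrophage markers (16 on the array) had medians of 7.38 and 6.53 in Trem2-/- cells, against 7.69 and 6.03 in WT cells, with log2 sums of 12.55 and 11.54 in Trem2-/- cells, against 12.68 and 11.54 in WT cells. Both lists were thus higher in the 4-week libraries of either genotype, and within each duration the genotypes differed by less than the durations did. Of 12 monocyte markers, the log2 sums were 12.15 and 11.67 in Trem2-/- cells, against 12.29 and 11.90 in WT cells. The log2 sums of 13 T and NK cell markers were 9.39 and 9.31 in Trem2-/- cells, against 9.83 and 10.76 in WT cells. Oligodendrocyte, precursor, astrocyte, neuron, endothelial and mural, T and NK cell, B cell and erythroid markers had medians below the table's median in all 4 libraries. Their part in the genotype differences was not tested.

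Single markers of other cells had gaps of their own. Flt1, a receptor for VEGF that marks endothelium, measured 4.39 and 4.30 in Trem2-/- cells, against 6.20 and 5.77 in WT cells, and was lower by 1.64 ± 0.23 on the log2 scale (adjusted p = 0.029), with 12 of 14 endothelial and mural markers under the table's median in all 4 libraries. Fn1, a matrix protein in the monocyte list, differed by -1.92 ± 0.52 and Ms4a7, in the border macrophage list and also a disease-associated gene, by -1.16 ± 0.24. Cd22, a B cell receptor that aged microglia also express, differed by -1.30 ± 0.29. Each of these 3 passed with the block only (adjusted p = 0.020, 0.018 and 0.047). Ccl5, a chemokine of T and NK cells, measured 8.60 and 8.80 in Trem2-/- cells, against 9.29 and 10.57 in WT cells, and did not pass in either fit.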

How the data were processed

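The deposited series matrix gives 1 linear intensity for each probe on 10 arrays of total RNA from sorted microglia, labelled from 2 ng of RNA per the labels' protocols. How the authors corrected, summarised and normalised the deposited intensity values was not given in the sources used here. Log2 was taken with no further scaling. Probes of 1 gene (21259 of 24567) named 19749 genes, the brightest probe was kept for 888 genes, and 10792 genes with at least 2 arrays above the table's median (38.5, or 5.27 on the log2 scale) were tested. Rows of several genes (1274) or of none listed (2034) were left out. Array data carry no read depth, so the number of libraries limits the precision.

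A model of the 6 group means over all 10 arrays was fitted by lmFit and eBayes (limma 3.58.1, R 4.3.3; 4 residual degrees of freedom), and p-values were adjusted by Benjamini-Hochberg over all genes tested, threshold 0.05. A second fit added titled duration as a replicate block (3 residual degrees of freedom), with controls beside the 4-week libraries. Deviations of same-titled libraries of the 2 genotypes from their group means correlated at 0.572 on cuprizone and 0.621 after recovery, and the titles are the source of this pairing. The steps were tested on simulated data with independent noise per array and no effect of duration. That setting lacks the correlation between same-titled libraries, so it does not show how the fits perform under it.

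The members, the 29 gene lists and the tests were chosen with earlier results of these data known. Named genes were Trem2, up to 15 per direction by size among those called with the same sign in both pairs (filled to 10 from the fit with the block), up to 4 members per list, up to 5 per difference against recovery or control, and the 5 largest changes between pairs in each direction. Genes ending in Rik were named only if no other filled the place. Alternatives were other scalings, filters, probe rules, an added 16, and leaving out each cuprizone or recovery library. The single control libraries were not left out.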

Additional observations from a re-analysis of the deposited data

Results flagged for a closer look

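Gpnmb was picked out because its genotype difference changed with diet by a test of that change: the Trem2-/- minus WT difference on cuprizone minus that in controls was -4.57 (adjusted p = 0.045 by limma). Each control group is 1 library whose spread was taken from the other groups, and no gene was called in 7 of 8 fits that left out a library, nor with array medians subtracted or 16 added before log2. It measured 4.57 and 4.52 in Trem2-/- cells on cuprizone, against 8.62 and 7.99 in WT cells.

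The other genes here were picked out because the Trem2-/- minus WT difference had opposite signs in the 4-week and the 12-week pair, among the 5 largest changes each way. Each pair is 1 library per genotype, and the difference between pairs was not tested. The change, 12-week difference minus 4-week difference, was 2.8 for the probe annotated to Mir16-1, 2.62 for Mir146, 2.45 for Mir103-2, 2.19 for Chil3, 2.1 for S100a9, -2.11 for Mir222 and -2.03 for Ifnb1. S100a9, an alarmin of neutrophils, measured 10.89 and 6.26 at 4 and 12 weeks in Trem2-/- cells, against 11.14 and 4.41 in WT cells. Chil3, a lectin of myeloid cells, measured 4.69 and 3.22 in Trem2-/- cells, against 6.36 and 2.69 in WT cells. Ifnb1, interferon beta, measured 4.61 and 8.49 in Trem2-/- cells, against 4.51 and 10.43 in WT cells. All Chil3 values but the 4-week WT one lay under the table's median of 5.27. So did both 4-week Ifnb1 values and the 12-week WT value of S100a9. The 12-week difference of Chil3 and the 4-week difference of Ifnb1 were thus each between dim values. For S100a9 and Ifnb1 the libraries titled 12 weeks lay on one side of those titled 4 weeks in both genotypes, by more than the genotypes differed within either pair.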

How the results depend on the processing

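The count of 36 genes was 32 to 39 with array medians subtracted, quantile normalization, no filter, the mean over probes, 16 added before log2 or only the 4 cuprizone arrays. It moved to 153 with titled duration as a replicate block and to 55 with that block when the library with conflicting labels was taken as a 4-week one. Leaving out each cuprizone or recovery library gave 0 to 42 genes, and none of the 36 kept its call in all 8 such fits. Trem2, Apoc1, Lpl, Gpnmb, Itgax, Clec7a, Axl and Fam20c kept it in 7 of 8. With the block, an alternative added after seeing the data, leaving out a cuprizone library gave 62 (4-week WT), 104 (4-week Trem2-/-), 79 (12-week WT) or 39 genes (12-week Trem2-/-). The difference minus that in controls called 0 genes with medians subtracted or 16 added, 9 with the block and 0 to 1 without a cuprizone or recovery library. That minus recovery called 0 in each of these. The 12-week pair had 154 genes past 2-fold with 16 added, against 250 without. Tyrobp, at -0.05, was 0.0103 under quantile normalization and -0.125 to 0.0157 with a library left out, and Treml1, at 0.13, was -0.17 to 0.43 with a library left out and -0.27 without the 4-week Trem2-/- library in the fit with the block. The cause of these shifts was not tested.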
